A study of Caenorhabditis elegans with 6 samples.

Results

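Gap junction proteins of the innexin family were examined in RIS, a single interneuron of Caenorhabditis elegans that uses GABA and neuropeptides and whose activity brings on sleep-like quiescence. The genes described were unc-7, unc-9, inx-1, inx-3, inx-6, inx-7, inx-10, inx-14, inx-18 and inx-19, chosen by symbol in the authors' deposited table. All 10 were found there, among 12072 genes and among 21 measured innexin genes of 25 listed. Of the other listed innexins, inx-2, inx-8, inx-9 and inx-22 were not found there under these symbols. RNA came from RIS cells of synchronized L1 larvae of the strain RIS::mKate, in which the flp-11 promoter drives the red fluorophore, and which were sorted by flow cytometry after the larvae were dissociated. L1 is the first larval stage. The reference was whole L1 larvae of the laboratory strain N2, frozen over liquid nitrogen and not sorted. Larvae of both groups hatched overnight in M9 buffer after hypochlorite synchronization, and the groups differ in strain and in cell isolation together with cell type, so that these cannot be told apart. By the labels each group has 3 libraries, and setting them against each other shows which transcripts differ between the sorted neuron and the whole larva.

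Innexins are the invertebrate gap junction proteins. They assemble into channels in each of a pair of touching cells, and let ions and small molecules pass from one cytoplasm to the other. In the worm they form the electrical synapses between neurons, couple the muscle cells of the body wall and the pharynx, and join cells of epithelia, the intestine and the gonad.

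The values are those of the authors' deposited table of RIS against whole L1, which gives 1 log2 fold change, 1 mean log2 CPM over both groups and 1 test per gene. No value per library was available, so the spread between libraries, any overlap of the groups and the sequencing depth are unknown. Separate cultures are not stated either, so the spread behind each p-value may be technical. Genes were called at the authors' p, from a test in the format of edgeR's quasi-likelihood F test, when its Benjamini-Hochberg adjustment over the whole table was below 0.05. By that rule 36.2% of all genes were called, 9.84% higher and 26.4% lower in RIS. Over all genes the log2 fold change had a median of −0.78, so values are also given after this median was subtracted, called median-centred here, with an approximate test adjusted over all genes. As deposited 27.2% of all calls were higher in RIS, and 45.0% after centring.

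The labelled cell type was checked against marker genes. All 6 RIS markers listed were higher in the authors' deposited table, by log2 fold changes from 6.16 for the glutamate decarboxylase gene unc-25 to 9.75 for flp-11, the gene whose promoter was used for the sort. None of 4 markers of AVK, the neuron that the sorting notes name, was called by the edgeR-format test as deposited. At an unadjusted p below 0.05, 1 of them was lower, twk-47, at −2.42 in the authors' deposited table (adjusted p = 0.0750). Median-centred, 2 of the 4 were called higher. These were the peptide gene flp-1, at 0.66 in the authors' deposited table (adjusted p = 0.305) and 1.44 after centring (adjusted p = 0.0452), and unc-42, at 1.27 in the authors' deposited table (adjusted p = 0.163) and 2.05 after centring (adjusted p = 0.0415). The other AVK markers were called on neither scale, with fax-1 at 1.48 (adjusted p = 0.451) and twk-47 at −1.65 (adjusted p = 0.197) after centring. All 8 panneuronal markers were higher on both scales, as were the 6 RIS markers. Of markers of other tissues in the authors' deposited table, 4 of 7 hypodermal, 5 of 6 pharyngeal, 4 of 5 body wall muscle, 5 of 6 intestinal and 2 of 4 glial genes were lower, and 1, the pharyngeal gene pha-4, was higher. Centring left 2 of 6 intestinal genes lower and added a call on the muscle gene unc-54, which was then higher. It left the counts of lower genes in the other 4 tissues as they were.

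Of the 10 innexins, 2 were higher in RIS, 5 were lower and 3 were not called. The higher ones were unc-9 and inx-1, and the lower ones were inx-3, inx-6, inx-18, unc-7 and inx-19. The 7 calls are 70.0% of the genes described, beside 36.2% of all genes. The median log2 fold change of the 10 was −0.67, close to the −0.78 of all genes. The genes described went both ways, from −6.20 for inx-3 to 3.66 for unc-9, besides unc-7 and inx-19, for which no fold is given. At an unadjusted p below 0.05 the count was also 7. The share of all genes at that threshold was not computed, here or for the other lists. Median-centred, 4 of the 10 were higher and 4 lower, beside 16.6% and 20.3% of all genes. In whole animals a transcript can be scarce because few cells of a type make it or because each cell holds little RNA of it, and these cannot be told apart.

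The call rule changed these counts. At an adjusted p below 0.01 the 10 innexins had 2 higher and 1 lower, beside 4.9% and 14.2% of all genes. Among genes at or above median expression, where 15.5% were higher and 24.3% lower, 5 of the 10 remained, with 2 higher and 1 lower. That filter uses the mean over both groups, which unc-9 and inx-1 passed through their RIS level, so their calls there are no separate support. A gene is said to have few RIS reads when it was lower in RIS and its signal there lay no higher than 3 reads can reach. Without such genes, which by this definition removes lower calls alone, 2 were higher and 3 lower of 8, beside 10.6% and 20.7%. With genes of public names only, 2 and 5 were called beside 11.5% and 24.3%. Bonferroni adjustment of the same edgeR-format p called 0.29% of all genes, all of them higher, and 0 of the 10.

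**Figure D1:**
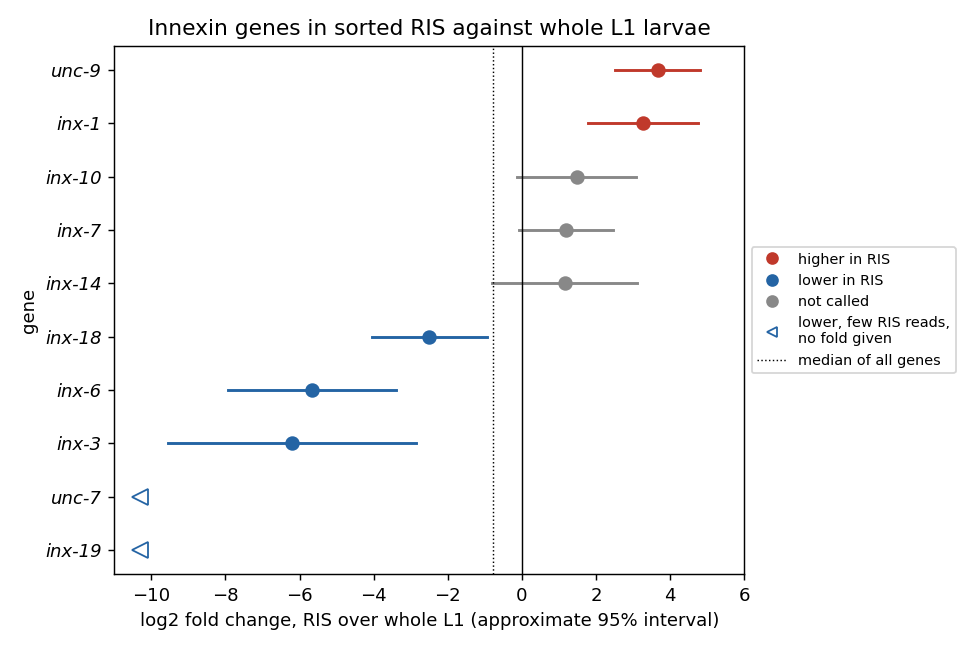
Log2 fold change of each innexin gene in sorted RIS over whole L1 larvae (x axis), with bars for the approximate 95% interval and colour for the call at an adjusted p below 0.05. The genes unc-9 and inx-1 lie right of 0, inx-7, inx-10 and inx-14 have intervals that include 0, inx-18, inx-6 and inx-3 lie left of it, and open triangles at the edge mark unc-7 and inx-19, which have few RIS reads and get no fold.

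The innexin with the largest rise among the 10 was unc-9, which takes part in electrical coupling of locomotor neurons and of body wall muscle cells. At a mean of 33.1 CPM over both groups, it was 12.6-fold higher in RIS by the authors' deposited table (log2 fold change 3.66, approximate standard error 0.48, approximate 95% interval 2.52 to 4.80, adjusted p = 0.00415). A fold change at or above that of unc-9 was listed for 3.14% of all genes. Its median-centred value was 4.44 (adjusted p = 0.00199). The gene unc-9 (WBGene00006749) is listed on the plus strand of X from 13212390 to 13216707 in the authors' deposited table, which names no genome build.

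The second innexin that rose was inx-1, one of the family known to contribute to coupling between body wall muscle cells. By the authors' deposited table it was 9.62-fold higher (log2 fold change 3.27, approximate standard error 0.63, interval 1.78 to 4.75, adjusted p = 0.00826) at a mean of 12.7 CPM. Median-centred it was 4.04 (adjusted p = 0.00646). The intervals of unc-9 and inx-1 overlap widely, and the difference between the genes was not tested. Both genes lie on the X chromosome, where the authors' deposited table places inx-1 (WBGene00002123) at 6943740 to 6956399 on the minus strand. In the annotation 9 non-coding RNA genes overlap the span of inx-1, and no other protein-coding gene does.

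Of 5 markers of body wall muscle, where unc-9 and inx-1 also act, 4 were lower in RIS. The myosin gene myo-3 (−2.81), twitchin (unc-22, −2.74) and paramyosin (unc-15, −2.99) were all called lower in the authors' deposited table. The muscle factor gene hlh-1 was lower at few RIS reads. The myosin gene unc-54 stood at 0.98 in the authors' deposited table and was not called (adjusted p = 0.0913), but was called higher after centring (1.76, adjusted p = 0.0139). Summed over these markers, the estimated level was 4649 CPM in RIS, leaving out hlh-1, and 8261 CPM in whole L1, with hlh-1. Of the sum in RIS, 3846 CPM were from unc-54 and 722 CPM from unc-15. The part of muscle RNA in the innexin values was not tested.

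The genes inx-7, inx-10 and inx-14 had positive values that did not pass the test as deposited. For inx-7, at 42.6 CPM, the log2 fold change was 1.20 in the authors' deposited table (interval −0.07 to 2.46, adjusted p = 0.126). For inx-10, another innexin that contributes to body wall muscle coupling, the authors' deposited table lists 1.47 at a mean of 9.40 CPM (interval −0.13 to 3.08, adjusted p = 0.136). The zero of the scale decides both calls. After centring on the median, inx-7 was called higher at 1.98 (adjusted p = 0.0265) and inx-10 at 2.25 (adjusted p = 0.0383). For inx-14, known for gap junctions between the germline and the somatic gonad, a value of 1.15 is listed in the authors' deposited table (interval −0.81 to 3.11, adjusted p = 0.324), and centring left it uncalled at 1.93 (adjusted p = 0.113). None of 4 germline markers was called by the edgeR-format test, and 1 had an unadjusted p below 0.05, with pgl-1 at 0.98 and glh-1 at −1.58 in the authors' deposited table.

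Neighbouring genes share a few exon bases with these 3 innexins on the opposite strand, and the sources used here do not say whether reads were counted by strand. The aspartic protease gene asp-2 shares 74 bases with inx-10, 3.23% of its annotated exon length, and by the authors' deposited table had a mean of 193.7 CPM and fell by 1.71 on the log2 scale (adjusted p = 0.0225). The overlap of inx-14 with kbrl-1 is 78 bases, or 4.95%, and that of inx-7 with pfkb-1.2 is 18 bases, or 0.963%. The part of these neighbours in the values of the innexins was not tested. All 3 lie on the minus strand, where the authors' deposited table places inx-7 (WBGene00002129) at IV 5943981 to 5946754, inx-10 (WBGene00002132) at V 9204703 to 9207467 and inx-14 (WBGene00002136) at I 7350312 to 7352235.

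Among the innexins that fell, inx-6 and inx-3 had the lowest fold changes that can be given. The gene inx-6 couples muscle cells of the pharynx, and inx-3 is found in pharynx and epithelia. At a mean of 8.29 CPM, inx-6 was 50.6-fold lower in RIS by the authors' deposited table (log2 fold change −5.66, approximate standard error 0.95, interval −7.92 to −3.40, adjusted p = 0.00631). The value of inx-3 in the authors' deposited table was −6.20 (73.6-fold lower, approximate standard error 1.40, interval −9.54 to −2.86, adjusted p = 0.0141) at a mean of 7.19 CPM. Both kept their calls after centring, inx-6 at −4.88 (adjusted p = 0.0102) and inx-3 at −5.42 (adjusted p = 0.0231). Both also lay not far above the position that 3 RIS reads can reach, by 1.69 log2 units for inx-6 and 0.94 for inx-3, so the size of either fall rests on little RIS signal and on the unstated prior count of the fit. In the authors' deposited table inx-6 (WBGene00002128) spans IV 12746584 to 12749721 and inx-3 (WBGene00002125) X 5996156 to 5998243, both on the plus strand. The annotation gives inx-3 3 exons and inx-6 8, in 1 transcript each.

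Of 13 measured markers of pharynx and hypodermis, the tissues named for inx-6 and inx-3, 9 were lower in RIS, 1 was higher and 3 were not called. Of the pharyngeal markers in the authors' deposited table, the myosin genes myo-2 (−5.13) and myo-1 (−3.93), the homeobox gene ceh-22 (−5.56), the troponin gene tnc-2 (−2.59) and phat-2 (−6.32) fell, whereas pha-4 rose (3.02, adjusted p = 0.0110). Hypodermal markers that fell there were sqt-3 (−3.89), dpy-13 (−4.12), elt-3 (−5.69) and wrt-2 (−6.06), and those not called were dpy-7 (−1.51), rol-6 (−1.30) and lin-26 (−3.06, adjusted p = 0.0643). Summed over the measured markers, the estimated level of the pharyngeal list was 297 CPM in RIS and 1771 CPM in whole L1, and that of the hypodermal list 390 and 5976 CPM. Of the pharyngeal sum in RIS, 147.7 CPM were from pha-4, and without it the sums were 149.8 and 1753 CPM. None of the markers of these lists lay at few RIS reads. The part of RNA from other cells in the innexin values was not tested.

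The gene inx-18, likewise one of the innexins that contribute to body wall muscle coupling, fell less. It was 5.64-fold lower in RIS by the authors' deposited table (log2 fold change −2.50, interval −4.04 to −0.95, adjusted p = 0.0234) at a mean of 47.7 CPM. Centring moved the value to −1.72 and ended the call (adjusted p = 0.0805). The authors' deposited table places inx-18 (WBGene00002140) at IV 606355 to 614021 on the plus strand.

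The genes unc-7 and inx-19 are both known from neurons. The product of unc-7 pairs with that of unc-9 in electrical synapses between command interneurons and motor neurons, and inx-19, also called nsy-5, couples cells when the AWC olfactory neurons take on different fates on the left and right. Both were called lower in the authors' deposited table, with adjusted p = 0.0157 for unc-7 and 0.0155 for inx-19, and both were rare, at means of 1.58 and 1.31 CPM. Their RIS signal lay at or below the position that 3 RIS reads can reach, so no fold is given. The median-centred calls held, with adjusted p = 0.0288 for unc-7 and 0.0286 for inx-19. Their level estimated for whole L1 was 3.06 CPM for unc-7 and 2.54 CPM for inx-19. Because both genes were rare in the reference as well, the contrast rests on small amounts in either group. In the authors' deposited table unc-7 (WBGene00006747) spans X 15120975 to 15147740 and inx-19 (WBGene00002141) spans I 2451908 to 2464637, both on the minus strand.

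The partners unc-7 and unc-9 therefore had calls of opposite direction, unc-9 higher and unc-7 lower, as deposited and median-centred. The difference between their fold changes was not tested.

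To set the innexins beside each other within RIS, a level for each group was estimated from the mean CPM and the fold change, taking the mean as the plain average of both groups, and divided by the annotated exon length. Estimated levels summed to 1075990 CPM for RIS and 924970 CPM for whole L1 over all genes, and the deposited means themselves to 1000480 CPM. They carry no error and their order was not tested.

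Per kilobase of exon, the genes with the highest estimated RIS level among the 10 were inx-7 with 31.7 CPM per kb and unc-9 with 28.0 CPM per kb. In RIS inx-14 followed with 12.3, inx-1 with 7.47, inx-18 with 6.28 and inx-10 with 6.04 CPM per kb, of which the last 3 are close to each other. The estimated RIS levels of inx-6 and inx-3 were 0.232 and 0.118 CPM per kb. The order in whole L1 was another, led by inx-18 with 35.4 CPM per kb, inx-7 with 13.8, inx-6 with 11.7 and inx-3 with 8.69 CPM per kb. The whole L1 levels of unc-9 and inx-1 were 2.22 and 0.777 CPM per kb. Taken over the 21 measured innexins, unc-9 made up an estimated 14.3% of the summed level per kilobase in RIS and 0.591% in whole L1. The gene inx-7 made up 16.2% and 3.69%, and inx-18 made up 3.21% and 9.44%. The largest share in both groups was that of inx-12, which is not among the 10, at 22.3% in RIS and 35.8% in whole L1. Over the 21 innexins the level summed to 195.7 CPM per kb in RIS and 375 CPM per kb in whole L1. For the 10 genes the sums were 92.3 and 82.8 CPM per kb, and for the other 11 innexins 103.4 and 292.2 CPM per kb. The ratio of RIS to whole L1 for the 10 genes, 1.11 as deposited, became 1.91 when the fold changes were centred on the median of all genes.

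**Figure D2:**
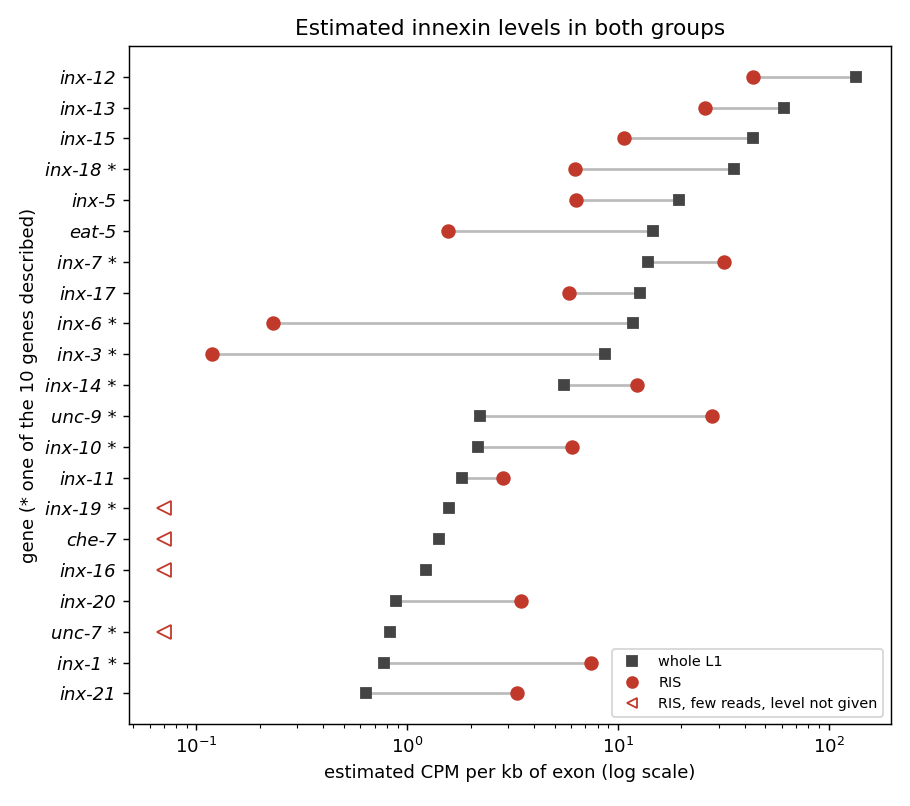
Estimated level of 21 innexin genes in CPM per kilobase of exon (log axis), with squares for whole L1 and circles for RIS, ordered by the whole L1 level, and open triangles where RIS had few reads and no level is given. Genes with an asterisk are the 10 described; unc-9 moves from 2.22 to 28.0 CPM per kb and inx-1 from 0.777 to 7.47, and inx-6 and inx-3 move down to 0.232 and 0.118.

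Of 11 other measured innexins, 0 were higher in RIS and 5 were lower, beside 9.84% and 26.4% of all genes. Their median log2 fold change was −1.63. At an unadjusted p below 0.05, where no share of all genes was computed, 6 were lower and 1 was higher. The higher one was inx-21, which the authors' deposited table lists at 2.38 (interval 0.40 to 4.36, adjusted p = 0.0639), and median-centred it was called higher (3.16, adjusted p = 0.0246). Genes that fell by the authors' deposited table were inx-12 (−1.63, adjusted p = 0.0179) and inx-13 (−1.25, adjusted p = 0.0478), which are needed in epithelia such as the excretory canal, and the pharyngeal muscle gene eat-5 (−3.23, adjusted p = 0.0291). The intestinal gene inx-16 (adjusted p = 0.0178) and che-7 (adjusted p = 0.00642) were lower at few RIS reads. Centring ended the calls on inx-12, inx-13 and eat-5. That left 1 higher and 2 lower of the 11, beside 16.6% and 20.3% of all genes. Although lower, inx-12 and inx-13 had estimated RIS levels of 43.6 and 25.8 CPM per kb, beside 134.4 and 61.4 CPM per kb in whole L1. The intestinal markers pept-1 (−5.62) and pho-1 (−3.28) fell in the authors' deposited table, and ges-1 (−0.74) was not called.

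Of 8 genes listed beside the innexins, stomatin-like genes and the DEG/ENaC channel gene unc-8, 4 were higher and 0 lower, with a median of 2.19. Of all genes 9.84% were higher and 26.4% lower. Median-centred, the counts of the 8 were the same, beside 16.6% and 20.3% of all genes. Stomatins are membrane proteins that modulate channels, and the stomatin gene unc-1 is required for the function of unc-9 gap junctions. In RIS unc-1 was 6.58-fold higher by the authors' deposited table (log2 fold change 2.72, interval 1.37 to 4.07, adjusted p = 0.0108). At an unadjusted p below 0.05, 1 of the 8 was lower. The other risers in the authors' deposited table were sto-5 (5.93, 61.1-fold, interval 4.93 to 6.93, adjusted p = 0.00134), sto-6 (4.92, adjusted p = 0.00314) and sto-4 (2.60, adjusted p = 0.00740). At an estimated 159.8 CPM per kb in RIS, sto-5 stood above every measured innexin. The genes unc-24 (0.75), unc-8 (1.78), sto-2 (−0.91) and sto-1 (−2.85, adjusted p = 0.0565) missed the threshold in the authors' deposited table.

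Genes of epithelial cell junctions went both ways. Of 16 measured, 3 were higher, 3 lower and 10 not called, with a median of −0.58. Of all genes 9.84% were higher and 26.4% lower. The 6 calls are 37.5% of this list, close to the 36.2% of all genes. Median-centred, 4 were higher and 2 lower. In the authors' deposited table the cadherin gene hmr-1 (2.07, adjusted p = 0.00821), its p120 catenin partner jac-1 (1.95, adjusted p = 0.0156) and the crumbs-like gene eat-20 (1.69, adjusted p = 0.0360) rose. Also there, the apical junction gene ajm-1 (−2.57, adjusted p = 0.0493) and the epithelial gene che-14 (−6.26, adjusted p = 0.00580) fell, and crb-1 (adjusted p = 0.00499) was lower at few RIS reads. The catenin genes hmp-1 (0.91) and hmp-2 (0.38), which act with hmr-1, missed the threshold in the authors' deposited table.

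The other means by which neurons signal to each other is the chemical synapse. Of 16 genes for transmitter release and vesicle transport, 15 were higher and 0 lower, beside 9.84% and 26.4% of all genes. Their median was 3.57, and none was lower at an unadjusted p below 0.05 in the edgeR-format test. Of the 10 innexins, 2 were higher and 5 lower. The genes rab-3, unc-104, snb-1, snt-1, unc-13, ric-4 and unc-64 are also among the panneuronal markers. The counts of these lists are therefore not separate results. The values in the authors' deposited table ran up to 4.59 for synaptobrevin (snb-1), and syd-2 was not called (−0.81, adjusted p = 0.430). The rise of unc-9 by 3.66 was close to those of unc-13 (3.67) and of snt-1 (3.77) in the authors' deposited table. The difference between the lists was not tested.

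**Figure D3:**
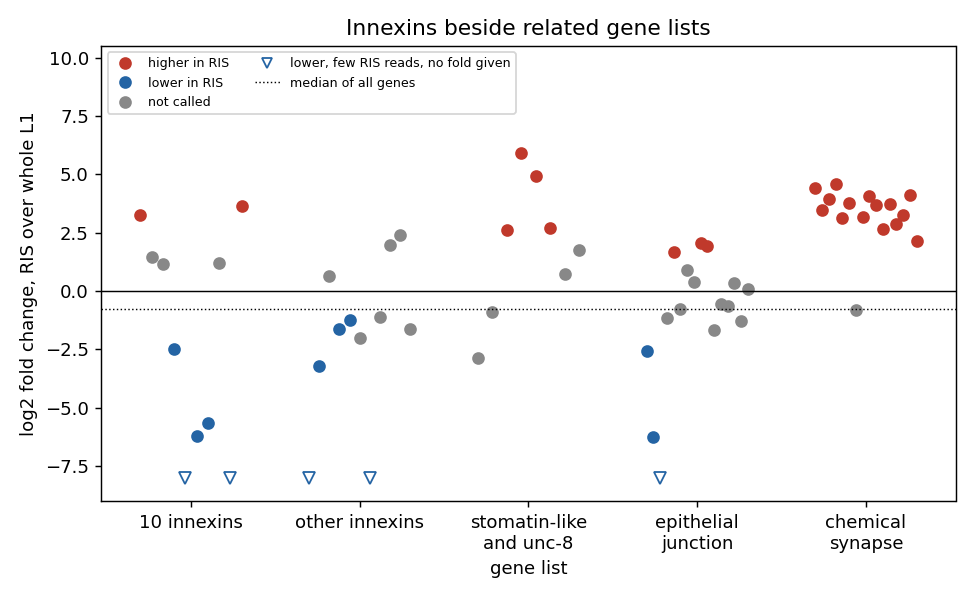
Log2 fold change in RIS over whole L1 (y axis) for the genes of 5 lists, coloured by call, with open triangles for genes at few RIS reads and a dotted line at the median of all genes. The chemical synapse list has 15 of 16 genes above 0 and called, and the 10 innexins spread from −6.20 to 3.66 besides the unc-7 and inx-19 triangles.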

How the data were processed

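The deposited table holds 12072 genes in 12 columns. Per the file headers, each gene has a p-value with its false discovery rate, an F score, and log2 values for fold change and mean CPM, in the format of edgeR's quasi-likelihood test. The authors' false discovery rate equals the Benjamini-Hochberg adjustment of their p-value to within 3.44e-15. Which aligner, counter, strand setting, build, filter and prior count the authors used is not given in the sources used here, and 0 columns of values per library were left unused. The members and gene lists were chosen with earlier results of these data known. All members were named. Of the other lists and the markers, not every called gene was named, and at most 4 others were.

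Dividing the size of the log2 fold change by the square root of F gave an approximate standard error, which was used with the 6.76 denominator degrees of freedom recovered from F and p for intervals and for the test of median-centred values. In 1 simulation of this comparison with t-distributed errors, the interval held the true value for 94.8% of 12072 genes; this tests the computation, not the approximation. Genes with few RIS reads lie at discrete positions of log2 fold change plus log2 CPM. Steps of a single read were measured above the position of the 170 genes whose lower degrees of freedom mark a group without reads, and genes lower in RIS up to the position of 3 reads, 4.53 above it (log2, with a margin of 0.1), get no fold. With a weight of 0.4 in place of equal weights, estimated levels summed to 1224770 CPM for RIS and 850957 CPM for whole L1. Exon lengths come from Ensembl release 115 (WBcel235), where 12052 gene identifiers were found; table coordinates equal it for 2 of the 10 genes. Tools were scipy 1.17.1, pandas 2.3.3 and numpy 2.4.6 under Python 3.11.15, with matplotlib 3.10.9 for figures. The planned protein comparison was not run.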

Additional observations from a re-analysis of the deposited data

How the results depend on the processing

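Without values per library, depth and precision are unknown and leaving out a replicate was not run. No paired analysis was possible because the deposited table has no values per library. Of the 10 innexins, 2 were higher and 5 lower as deposited. Median-centred, 4 of them were higher and 4 lower, and of the other innexins 1 was higher and 2 lower. At an adjusted p below 0.01, 1 of the 10 innexins was lower (inx-6), as was 1 of the other innexins (che-7). Of the epithelial junction genes, 1 was higher and 2 were lower there, beside 4.9% and 14.2% of all genes. Among genes at or above median expression, 1 of the 5 remaining innexins of the 10 was lower (inx-18) and 3 of the 6 remaining other innexins. Of all genes kept by that filter, 24.3% were lower. The gene eat-5, 1 of those 3, passed it only through its whole L1 level (22.1 CPM, beside 2.36 CPM in RIS). Its call there is therefore no separate support. Leaving out genes at few RIS reads, an alternative chosen after seeing the data that can only remove lower calls, left 3 lower of the 10 and 3 lower of the others. With Bonferroni adjustment, which left 35 genes of the whole table called, 0 innexins were called in either direction, 1 stomatin-like gene was higher (sto-5), and 0 epithelial junction and 0 chemical synapse genes were called. Only centring can change a direction, since the other alternatives keep the sign of the deposited value. It can do so only for negative values above the median of all genes, and no member lay there. Requiring a fold change of at least 2 could not change any count. It called the same 1188 higher and 3183 lower genes of the whole table as the main rule. Public gene names alone left the counts of the 10 as they were.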
